A study of Mus musculus with 12 samples.

Results

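Nos2, C3, Tgm2 and Lama5 were 4 of the 17203 genes listed in an RNA sequencing study of primary mouse CD4+ T cells, also known as helper T cells. They were picked from their measured levels, because their CPM, reads per 1000000 reads assigned to the listed genes, were high in CD3_CD28 cells and low in the other 3 groups. That contrast is therefore given below as a description with no test. All 4 passed the filter on low values used for testing, which asked for at least 10 CPM in at least 3 of the 12 libraries. Nos2, C3 and Lama5 passed it only through the CD3_CD28 libraries, while Tgm2 reached 10 CPM in all 12.

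The cells came from C57BL/6 mice, with no allele or transgene named in the sample labels, and formed 4 groups of 3 libraries. Unstimulated cells were fresh and not cultured for activation. Anti-CD3 is an antibody that triggers the T cell receptor through its CD3 chains, and CD3 cells were activated with it in plate-bound form for 72 h. The CD3_CD28 cells had the same plate-bound antibody and, in solution, one against the costimulatory receptor CD28, again for 72 h. The CD3_CD28_ICOS cells, called the ICOS group below, had those antibodies and a further one against ICOS, a costimulatory receptor related to CD28, for 72 h, and their labels call the antibodies soluble. Between CD3_CD28 and the ICOS group, the effect of anti-ICOS and that of soluble in place of plate-bound anti-CD3 cannot be told apart. No label tells whether libraries of 1 group are from separate mice or cultures, so p-values reflect only how these libraries vary, and that variation may be technical.

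The 4 genes encode proteins of unlike kinds. Nos2 encodes inducible nitric oxide synthase, which makes nitric oxide from arginine and is best known from activated macrophages. C3 encodes the central complement protein, cleaved by convertases into fragments that tag surfaces and signal through receptors. Tgm2 encodes tissue transglutaminase, a calcium-dependent enzyme that crosslinks proteins and that also binds GTP. Lama5 encodes the laminin alpha 5 chain, which joins a beta and a gamma chain to form a basement membrane laminin that is bound by integrins.

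In the mm10 annotation all 4 are protein-coding genes. Nos2 (ENSMUSG00000020826.8) is on the plus strand at chr11:78920787-78960254. C3 (ENSMUSG00000024164.15) is on the minus strand at chr17:57203970-57228136 and holds the microRNA gene Mir6978. Tgm2 (ENSMUSG00000037820.15) is on the minus strand at chr2:158116402-158146436 and overlaps Rprd1b on the opposite strand. Rprd1b stood at 43.4 to 63.1 CPM over the 12 libraries, and whether the counting used strand is not given in the sources used here, so reads of the overlap could have been assigned to either gene. Lama5 (ENSMUSG00000015647.9) is on the minus strand at chr2:180176373-180225859 and holds Mir7005.

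RefSeq promoter windows of GRCm38.p6, running from 250 bases before to 50 bases after the start site, were matched for 2 of the 4 genes, C3 and Lama5. Both matched windows are shown. These genes shared a pattern of expression, and their windows are unlike in base composition. Each is printed 5' to 3' on the gene's own strand, the minus strand for both, at chr17:57228087-57228386 for C3 and chr2:180225810-180226109 for Lama5. Capitals mark matches to the motifs searched.
C3: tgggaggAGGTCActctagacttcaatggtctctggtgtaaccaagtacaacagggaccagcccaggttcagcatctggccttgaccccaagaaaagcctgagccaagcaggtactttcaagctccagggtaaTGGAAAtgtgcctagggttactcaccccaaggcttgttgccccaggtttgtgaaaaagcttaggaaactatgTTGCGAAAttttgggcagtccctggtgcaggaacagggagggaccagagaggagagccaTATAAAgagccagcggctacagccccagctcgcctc
Lama5: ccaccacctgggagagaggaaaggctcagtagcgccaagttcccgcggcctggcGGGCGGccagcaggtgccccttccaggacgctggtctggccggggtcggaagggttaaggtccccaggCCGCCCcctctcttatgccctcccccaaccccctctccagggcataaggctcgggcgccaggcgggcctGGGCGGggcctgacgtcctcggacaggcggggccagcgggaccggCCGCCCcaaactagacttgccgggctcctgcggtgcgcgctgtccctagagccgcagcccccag
The C3 window had a GC content of 53.3%, near the median of 52.7% over 32851 windows of the same length. The leftmost capitals mark AGGTCA, the core element bound by retinoic acid receptors, at -243 to -238 from the start site. The next mark the NFAT core TGGAAA at -117 to -112. They are followed by TTGCGAAA, a match to the C/EBP motif, which was searched as TTGCNNAA, at -45 to -38. The rightmost mark TATAAA, the letters of the TATA box, at 15 to 20. That is downstream of the start site, so it is given as a match of letters only. The Lama5 window had a GC content of 72.7%, higher than that of 93.9% of windows, and 4 matches to the GC box GGGCGG. They lie at -196 to -191 and -59 to -54 on the gene's strand and at -128 to -123 and -14 to -9 on the opposite strand, where the printed letters read CCGCCC.

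Searched on both strands, the receptor core element was found in 16.3% of all windows, the NFAT core in 21.4%, the C/EBP motif in 10.8%, the TATA box in 13.6% and the GC box in 35.7%. Neither window held the kB motif of NF-kB (0.411% of windows), the AP-1 motif TGANTCA (7.81%) or the GAS motif, searched as TTCNNNGAA (8.30%). The matched motifs do not overlap each other. These are matches of letters in a fixed window and no measure of binding.

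Estimated depth, from the steps between low CPM values, was (11.4 to 37.5) x 1000000 reads per library, so 1 read was worth 0.0266 to 0.0879 CPM. The T cell markers summed to 3862 to 6685 CPM in every library, with Cd4 at 980 ± 107 CPM (SD, n = 3) and Cd3e at 204 ± 24.4 CPM in CD3_CD28. CT010467.1, a ribosomal RNA gene, took 11.8% of the reads of CD3_CD28 replicate 1 and 1.26% to 3.20% of those of the unstimulated libraries.

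Nos2 was listed at 0 in all 3 unstimulated libraries. It stood at 0.263, 0.455 and 0.716 CPM in CD3 replicates 1 to 3 and at 1.36, 7.25 and 1.02 CPM in the ICOS replicates. In CD3_CD28 it stood at 71.3, 101 and 68.5 CPM, a mean of 80.3 ± 18.0 (SD, n = 3). Every CD3_CD28 library was above every other library, and the lowest of them was 9.45 times the highest value elsewhere, that of ICOS replicate 2.

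C3 stood at 23.9, 8.52 and 7.08 CPM in the unstimulated libraries and at 3.33, 3.11 and 1.58 CPM in CD3. It stood at 120.0, 107 and 87.3 CPM in CD3_CD28, a mean of 104.8 ± 16.4, and at 1.25, 11.6 and 2.58 CPM in the ICOS group. The lowest CD3_CD28 library was 3.65 times the highest other library, unstimulated replicate 1. C3 was the member with the nearest rival, and the only one of the 4 whose second-highest group mean was that of unstimulated cells (13.2 ± 9.34 CPM).

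Tgm2 stood at 20.5, 11.3 and 10.1 CPM in the unstimulated libraries and at 30.0, 62.6 and 31.4 CPM in CD3. It stood at 933, 753 and 847 CPM in CD3_CD28, a mean of 844 ± 89.6, and at 22.4, 101 and 43.9 CPM in the ICOS group. It was present in every library, and its lowest CD3_CD28 value was 7.44 times the value in ICOS replicate 2, the highest elsewhere. The word "confined" therefore does not describe Tgm2, or C3 in unstimulated cells, as it does Nos2 and Lama5.

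Lama5 stood at 0.0888, 0.437 and 0.217 CPM in the unstimulated libraries and at 2.98, 4.56 and 5.16 CPM in CD3. It stood at 129, 71.3 and 105 CPM in CD3_CD28, a mean of 101.9 ± 29.1, and at 1.28, 2.21 and 2.01 CPM in the ICOS group. Its lowest CD3_CD28 library was 13.8 times the highest other library, CD3 replicate 3, the widest such gap of the 4 genes.

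**Figure D1:**
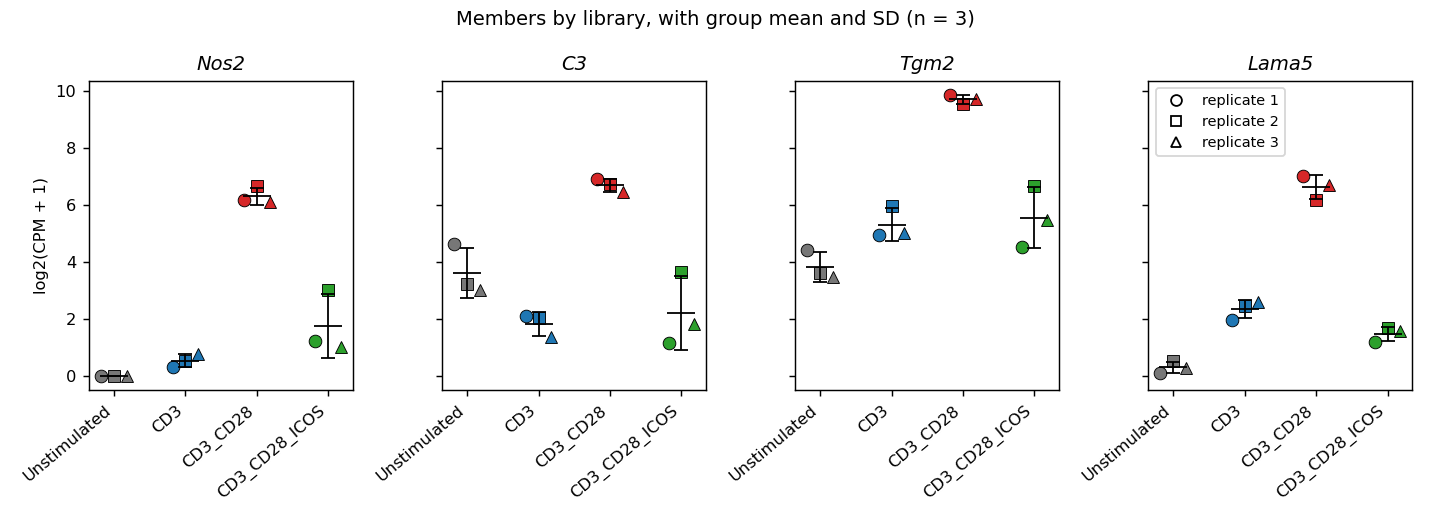
CPM of the 4 genes in each of the 12 libraries, by group, as log2(CPM + 1); points are libraries, and bars give the group mean and SD. The 3 CD3_CD28 points lie above all other points for each gene, and ICOS replicate 2 is the highest ICOS point for each.

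As a share of the sum of the 4 group means, CD3_CD28 held 95.6% for Nos2, 94.2% for Lama5, 88.4% for Tgm2 and 83.3% for C3. A gene equal in all groups has a share of 25%, and the median over the 9826 genes tested was 22.7%. Among tested genes these shares ranked 3, 5, 16 and 30, and 0.305% of tested genes had a share at or above that of C3. The means in CD3_CD28 were 25.0 times (Nos2), 24.1 times (Lama5), 15.1 times (Tgm2) and 7.95 times (C3) those of the next group. All 3 CD3_CD28 libraries exceeded all other 9 for 4 of the 4 members and for 13.1% of tested genes, and since the members were chosen for this, nothing is read from that count.

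**Figure D2:**
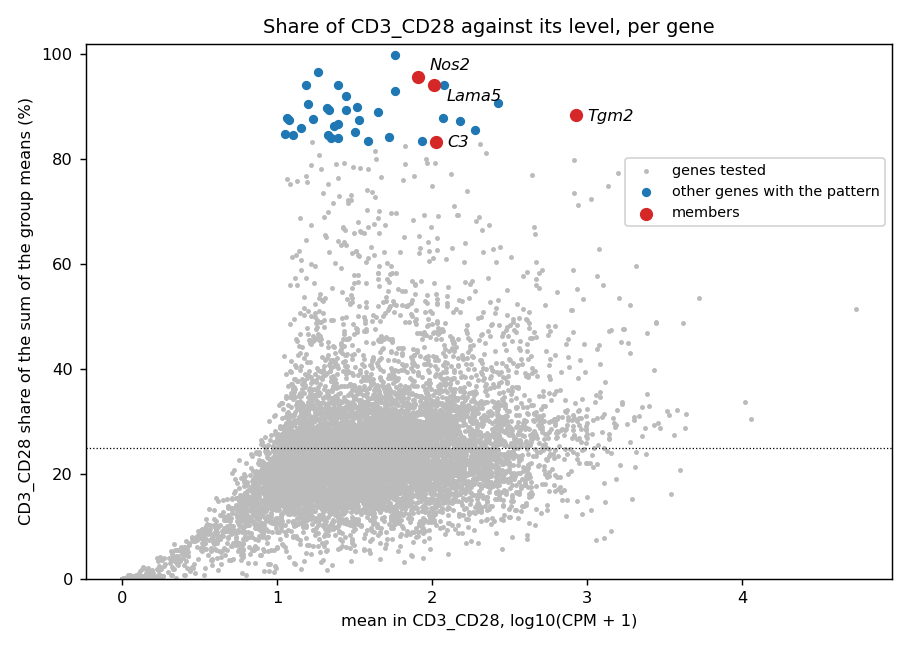
Share of CD3_CD28 in the sum of the 4 group means (percent) against log10(mean CPM in CD3_CD28 + 1), with a point per tested gene, the 4 genes named and a dotted line at 25%, an equal share. Nos2 and Lama5 lie at 95.6% and 94.2%, Tgm2 at 88.4% with the highest mean of the 4, and C3 at 83.3%.

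Between genes, levels were compared per kilobase of exon. In CD3_CD28, Tgm2 had 183 ± 19.5 CPM per kilobase (SD, n = 3), C3 had 20.4 ± 3.20, Nos2 had 18.2 ± 4.09 and Lama5 had 8.95 ± 2.55. Tgm2 was thus the most abundant per length by a wide margin, and C3 and Nos2 differed by less than the spread of their libraries. Among the 3 CD3_CD28 libraries the genes did not share an order: Nos2 was highest in replicate 2, and C3, Tgm2 and Lama5 were highest in replicate 1. Replicate 1 is the library with the large share of CT010467.1. With that gene removed and the libraries rescaled, the CD3_CD28 means were 84.7 ± 16.5 CPM for Nos2, 112 ± 23.3 for C3, 898 ± 148 for Tgm2 and 109 ± 37.0 for Lama5.

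The levels among the other 3 groups were tested, since the choice of members asked only that all 3 be low and used no difference between them. Differences are log2 fold changes of CPM + 1 with SE, from limma over all 12 libraries, with Benjamini-Hochberg adjustment over the 9826 genes and a threshold of 0.05. Adding 1 CPM understates changes of genes as low as these. In CD3 against unstimulated cells, 3 of the 4 members were called, against 69.8% of all tested genes. In the ICOS group against unstimulated cells it was 3 of 4 against 59.4%, and in the ICOS group against CD3 it was 2 of 4 against 47.7%. These shares of the members are near those of all genes, and are not a result about the members.

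Lama5 rose in CD3 over unstimulated cells by 2.05 ± 0.24 (adjusted p = 4.38e-06). It also rose in the ICOS group over unstimulated cells, by 1.18 ± 0.24 (adjusted p = 9.10e-04), and was lower in the ICOS group than in CD3, at -0.88 ± 0.24 (adjusted p = 0.00932). None of these groups overlapped, so outside CD3_CD28 the levels were ordered CD3, ICOS group and unstimulated. After quantile normalization the step from unstimulated cells to the ICOS group was 0.46 (adjusted p = 0.233) and that from CD3 to the ICOS group -0.74 (adjusted p = 0.0742), so both calls were lost.

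Tgm2 rose over unstimulated cells in CD3, by 1.48 ± 0.50 (adjusted p = 0.0227), and in the ICOS group, by 1.73 ± 0.50 (adjusted p = 0.0129). Neither group overlapped the unstimulated libraries. The ICOS group and CD3 overlapped, at 0.25 ± 0.50 (adjusted p = 0.717), and so cannot be ordered. The call in CD3 was lost without unstimulated replicate 2 (adjusted p = 0.0670), unstimulated replicate 3 (0.0565) or CD3 replicate 2 (0.0883).

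Nos2 rose in the ICOS group over unstimulated cells by 1.77 ± 0.41 (adjusted p = 0.00230), a value that depends on the added 1 CPM because Nos2 was listed at 0 in unstimulated cells. In CD3 against unstimulated cells the difference was 0.55 ± 0.41 (adjusted p = 0.244). With 0.1 CPM added in place of 1, that difference was 2.45 (adjusted p = 0.00217). Nos2 rose in the ICOS group over CD3 by 1.21 ± 0.41 (adjusted p = 0.0267), and each ICOS library was above each CD3 library. Without ICOS replicate 2 that difference was 0.57 (adjusted p = 0.0676), and the call was also lost without CD3 replicate 1 (0.0801) or CD3 replicate 2 (0.0637).

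C3 fell by 1.79 ± 0.60 in CD3 below unstimulated cells (adjusted p = 0.0216), with no overlap of the libraries. It was the 1 member that was lower in CD3 than in unstimulated cells. Unstimulated cells were fresh, so in every comparison with them stimulation and 72 h of culture cannot be told apart. Without unstimulated replicate 1 the difference was -1.29 (adjusted p = 0.0803), and without CD3 replicate 3 it was -1.56 (adjusted p = 0.0779). In the ICOS group against unstimulated cells it was -1.41 ± 0.60 (adjusted p = 0.0661), and against CD3 0.38 ± 0.60 (adjusted p = 0.640), with overlap in both. C3 in the ICOS group therefore could not be placed apart from either. In these bulk samples, fewer cells of a type and less RNA per cell cannot be told apart.

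In the authors' deposited table, made with their own fit, the log2 ratio of Nos2 in PB_CD3 against Control was 6.02, with an FDR of 1.08e-04. Nos2 was listed at 0 in every unstimulated library and averaged 0.478 CPM in CD3. The size of that ratio therefore depends on how values of 0 were handled. In the authors' deposited table, Combo_Costim against PB_CD3 gave 2.70 for Nos2 (FDR 0.00439) and -1.22 for Lama5 (FDR 0.0876). For C3, PB_CD3 against Control was -2.31 (FDR 0.00202) in the authors' deposited table. Thus the authors' table calls Nos2 in anti-CD3 alone, where the limma fit with 1 CPM added did not, and leaves Lama5 uncalled between the 2 stimulated groups, where limma called it. PB_CD3, Combo_Costim and Control were read as the CD3, ICOS and unstimulated groups.

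Markers of other cell types were measured in the same libraries. Myeloid and neutrophil markers, 17 of a list of 18, summed to 279 to 708 CPM in unstimulated cells, 72.0 to 141 in CD3 and 33.3 to 111 in the ICOS group. They summed to 15.6 to 19.7 CPM in CD3_CD28. In CD3_CD28, 13 of the 17 had a mean below 0.1 CPM. There Lyz2 was listed at 0 in every library, Adgre1 averaged 0.0149 CPM and Csf1r 0.0313 CPM. The part of myeloid cells in the Nos2 and C3 values was not tested. Cd68, a lysosomal gene not restricted to macrophages, made up most of the sum. It was highest in CD3_CD28, at 16.1 ± 2.32 CPM against 10.7 ± 4.29 in unstimulated cells, 5.18 ± 0.271 in CD3 and 2.70 ± 0.453 in the ICOS group, and its part in the members' values was not tested.

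B cell markers, all 9 listed, summed to 8.55 to 13.7 CPM in CD3_CD28, 376 to 810 in CD3, 264 to 727 in the ICOS group and 132 to 239 in unstimulated cells. Markers of endothelium, fibroblasts and epithelium, 11 of 15, summed to 66.3 to 79.5 CPM in CD3_CD28 and to 209 to 361 elsewhere, where Pecam1 led. Pecam1 fell from 203 ± 14.1 CPM in CD3 to 41.1, 61.3 and 43.7 CPM in the CD3_CD28 libraries (-2.06 ± 0.16, adjusted p = 7.83e-07). Epcam, an epithelial marker, was highest in CD3_CD28, at 19.0 ± 3.64 CPM against 14.5 ± 2.38 in CD3, 4.60 ± 0.936 in unstimulated cells and 1.51 ± 0.102 in the ICOS group. Its difference was 1.83 ± 0.18 from unstimulated cells (adjusted p = 6.02e-07) and 0.36 ± 0.18 from CD3, which did not pass the threshold. Dendritic cell markers, 7 of 9, summed to 6.04 to 8.66 CPM in CD3_CD28 and 3.70 to 9.17 in the ICOS group. They summed to 7.25 to 14.43 CPM in CD3 and 7.08 to 15.65 in unstimulated cells, so the groups overlapped. None of these marker sums was higher in CD3_CD28 than in all other groups. The endothelial, fibroblast and epithelial sum mostly followed Pecam1, which gave 309 of its mean of 319.5 CPM in unstimulated cells. Unstimulated replicate 1 had the highest myeloid sum and also the highest C3 and Tgm2 of the unstimulated libraries, and the part of myeloid RNA in those values was not tested.

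**Figure D3:**
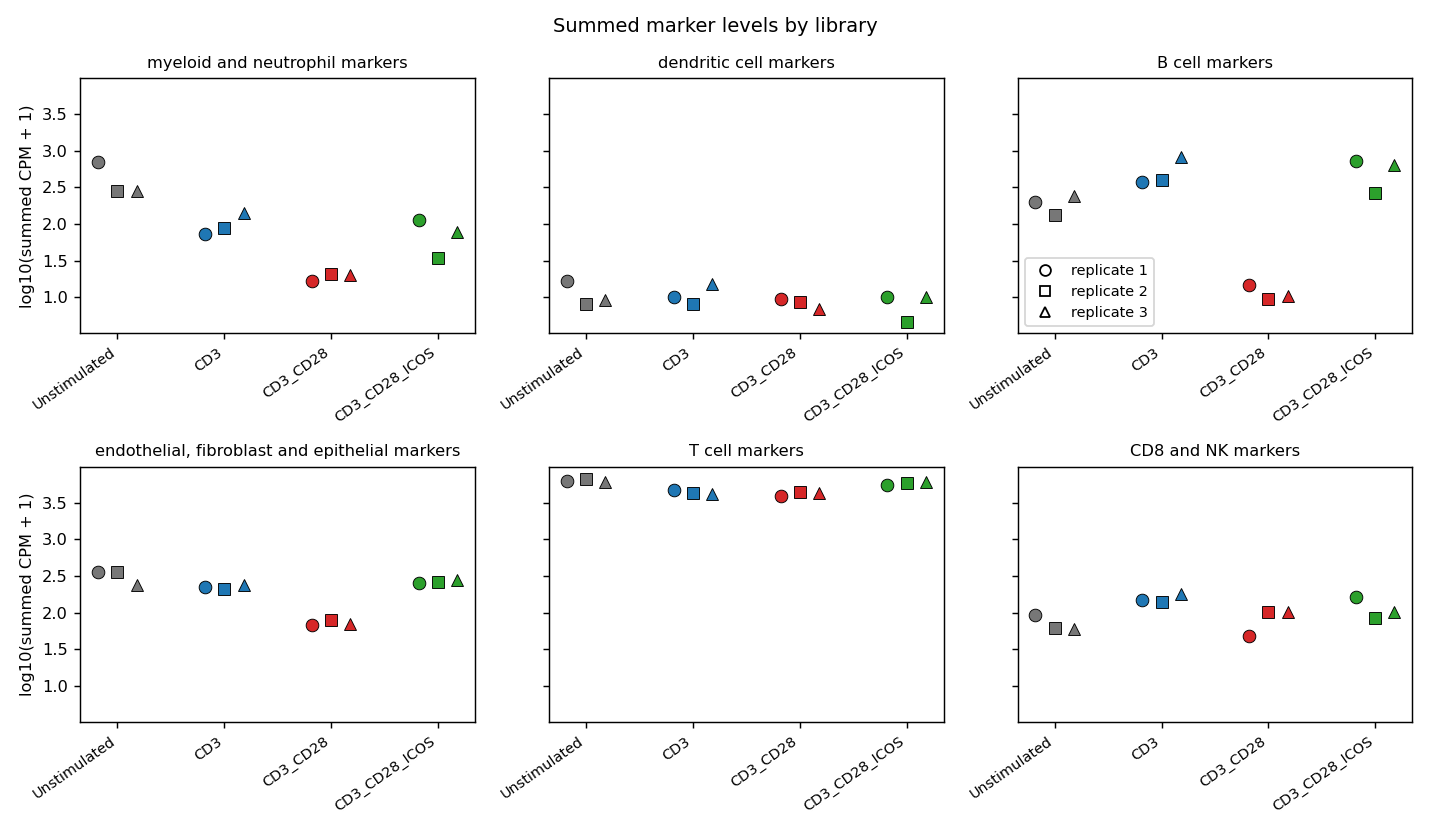
Summed CPM of 6 marker lists, as log10(summed CPM + 1), by group; each point is a library. The myeloid and B cell sums are lowest in the 3 CD3_CD28 libraries, at 15.6 to 19.7 and 8.55 to 13.7 CPM.

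Genes of the pathways around the members were read gene by gene, in lists, from the fits of CD3_CD28 against CD3 and of the ICOS group against CD3_CD28, and no list was tested as a whole. In the first, 18.7% of tested genes were called higher and 45.7% lower, with a median difference of -0.24. In the second, 38.5% were higher and 24.5% lower, with a median of 0.13. The split depended on the scaling. In CD3_CD28 against CD3 there were 1837 higher and 4487 lower calls as deposited, 3153 and 2808 after median of ratios scaling, and 2882 and 3109 after quantile normalization. In the ICOS group against CD3_CD28 there were 3787 and 2403, then 2781 and 3605, and 3224 and 3115.

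Nitric oxide synthases use arginine and the cofactor tetrahydrobiopterin, and signal through soluble guanylate cyclase. Of 19 such genes 10 were tested, and 2 rose and 4 fell in CD3_CD28 against CD3, with a median of -0.14. Slc7a1, an arginine transporter, rose from 259 ± 7.30 to 427 ± 67.9 CPM (0.71 ± 0.14, adjusted p = 7.33e-04). Gch1, the first enzyme of tetrahydrobiopterin synthesis, rose from 10.5 ± 0.454 to 18.4 ± 3.70 CPM (0.73 ± 0.17, adjusted p = 0.00223). Pts, the next enzyme of that route, fell from 26.0 ± 5.69 to 8.90 ± 2.19 CPM (-1.45 ± 0.18, adjusted p = 1.60e-05). Gucy1a1, a guanylate cyclase subunit, fell from 85.4 ± 22.1 to 5.64 ± 2.83 CPM (-3.78 ± 0.40, adjusted p = 1.36e-05). The shares of the list that rose and fell were near those of all tested genes, and are not a result about the list.

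Against CD3_CD28, 4 of the 10 were higher and 2 lower in the ICOS group (median -0.11). Slc7a1 fell by 1.91 ± 0.14 and Gch1 fell by 0.98 ± 0.17, while Pts rose by 1.89 ± 0.18 (adjusted p = 1.29e-07, 2.36e-04 and 9.47e-07). The other nitric oxide synthase genes stayed low: Nos1 had at most 0.981 CPM in any group mean and Nos3 at most 0.336 CPM, both named after their values were seen.

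Of 36 complement genes, 10 were tested, and in CD3_CD28 against CD3 2 rose and 4 fell, with a median of 0.00. Cfp, which encodes properdin, the stabilizer of the C3 convertase, fell from 10.8 ± 5.98 to 0.141 ± 0.0475 CPM (-3.24 ± 0.50, adjusted p = 1.58e-04). Cr1l, which encodes a regulator of C3 cleavage, fell from 36.9 ± 2.12 to 16.8 ± 1.43 CPM (-1.09 ± 0.12, adjusted p = 7.25e-06). C1qa, of the classical pathway, was listed at 0 in all 9 stimulated libraries and at 47.8, 20.7 and 18.6 CPM in the unstimulated ones, with the highest value in the library of the highest myeloid sum. Cfb, the catalytic partner of C3 in the alternative pathway, and C3ar1, the receptor of a C3 fragment, had at most 0.861 and 0.392 CPM in any group mean, and were named after their values were seen. In the ICOS group against CD3_CD28 5 of the 10 rose and 0 fell (median 0.35).

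Of 9 other transglutaminase genes 1, Tgm1, was tested. Tgm1, known from the cornified envelope of skin, stood at 29.1, 16.0 and 15.1 CPM in CD3_CD28. It stood at 0, 0.569 and 0.151 in CD3, at 0.240, 0.0374 and 0.106 in the ICOS group and at 2.98, 2.08 and 0.695 in unstimulated cells. It passed the filter on low values only through CD3_CD28, so its difference of 4.05 ± 0.35 from CD3 and that of -4.17 ± 0.35 in the ICOS group against CD3_CD28 are given as a description, with no test. Like C3, it fell in CD3 against unstimulated cells, at -1.17 ± 0.35 (adjusted p = 0.00813). With a pseudocount of 5 that difference was -0.39 (adjusted p = 0.0665), so the call was lost. The share of Tgm1 in CD3_CD28, 89.8%, lay between those of Tgm2 and Lama5. Its gene overlaps the antisense gene Gm49067.

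Of 24 laminin, basement membrane and laminin receptor genes 8 were tested, and 3 rose and 3 fell in CD3_CD28 against CD3 (median 0.34). Of the 3 that rose, Agrn passed the filter only through CD3_CD28. Lamc1, a gamma chain that can join the Lama5 product, stood at 4.03 ± 1.76 CPM in unstimulated cells, 85.2 ± 17.8 with anti-CD3 alone, 108 ± 24.7 with anti-CD28 added and 34.6 ± 3.25 in the ICOS group. It rose in CD3 over unstimulated cells by 4.14 ± 0.23 (adjusted p = 8.22e-09) and differed between CD3_CD28 and CD3 by 0.34 ± 0.23 (adjusted p = 0.226). Lamc1 and Lama5 thus differed in pattern, since Lamc1 was already high with anti-CD3 alone. Itga3, a subunit of a laminin-binding integrin, rose from 25.2 ± 2.02 to 35.1 ± 4.19 CPM (0.46 ± 0.14, adjusted p = 0.0121), a call lost without CD3_CD28 replicate 1 (adjusted p = 0.0604). Itga6, the subunit of another such integrin, fell from 213 ± 18.5 to 114 ± 25.4 CPM (-0.92 ± 0.14, adjusted p = 8.05e-05).

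Itga7, another laminin-binding integrin subunit, stood at 200, 146 and 129 CPM in CD3_CD28, at 35.5, 59.8 and 36.9 in CD3 and at 8.18, 110 and 41.4 in the ICOS group. The difference of CD3_CD28 from CD3 was 1.84 ± 0.73 (adjusted p = 0.0516) and Itga7 fell by 2.16 ± 0.73 in the ICOS group against CD3_CD28 (adjusted p = 0.0282). In that comparison 3 of the 8 genes were higher and 5 lower (median -0.80). Agrn, among the lower ones, passed the filter only through CD3_CD28. The Itga7 call was lost without CD3_CD28 replicate 1 (adjusted p = 0.0709), CD3_CD28 replicate 2 (0.0548) or ICOS replicate 3 (0.0548), and ICOS replicate 2 was again the highest of its group. The difference of CD3_CD28 from CD3 was called under 9 alternatives, among them quantile normalization (2.05, adjusted p = 0.0369), median of ratios scaling (2.09, adjusted p = 0.0342) and without ICOS replicate 1 (adjusted p = 9.75e-04) or ICOS replicate 2 (0.0116).

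Tgm2 is a known target of retinoic acid receptors. Of 19 genes of that pathway 8 were tested, and 3 rose and 2 fell in CD3_CD28 against CD3 (median 0.17). The risers were the receptors Rara (33.1 ± 2.99 to 94.5 ± 2.83 CPM, 1.49 ± 0.10), Rarg (1.26 ± 0.21) and their partner Rxra (2.11 ± 0.18), with adjusted p of 1.78e-07, 2.22e-04 and 7.69e-07. The 2 that fell were Ccr9, a homing receptor gene induced by retinoic acid, and Itga4, an integrin subunit gene, at -0.77 ± 0.23 and -0.81 ± 0.17 (adjusted p = 0.0104 and 0.00112). Unlike Tgm2, the nuclear receptors Rara and Rxra were also high in unstimulated cells, with Rara at 74.4 ± 2.42 CPM and Rxra at 26.3 ± 5.50 CPM. Against CD3_CD28, 3 genes of the list were higher and 4 lower in the ICOS group (median -0.24). Crabp2, a retinoic acid carrier that passed the filter only with the CD3_CD28 libraries, stood at 10.2 ± 1.85 CPM in CD3, 14.4 ± 5.75 in CD3_CD28 and 0.392 ± 0.121 in the ICOS group.

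A list of 20 transcription factor genes known to act on the members had 18 tested, of which 7 rose and 4 fell in CD3_CD28 against CD3 (median 0.23). Cebpb, an activator of C3 and 1 of the 7, stood at 4.81 ± 0.0510 CPM in CD3, 16.9 ± 0.537 in CD3_CD28 and 3.75 ± 0.596 in the ICOS group. It passed the filter only with the CD3_CD28 libraries, so these values are a description with no test. Fosl2, an AP-1 subunit, rose by 2.03 ± 0.43 to 272 ± 47.9 CPM (adjusted p = 0.00229), and Nfkb2 rose by 1.02 ± 0.18 (adjusted p = 2.94e-04). Irf1, a known activator of Nos2 in macrophages, fell from 332 ± 50.4 to 112 ± 14.7 CPM (-1.56 ± 0.12, adjusted p = 3.28e-07). Of these factors, 4 were higher and 5 lower in the ICOS group against CD3_CD28 (median -0.01). There Irf1 rose by 1.78 ± 0.12 (adjusted p = 4.28e-08).

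**Figure D4:**
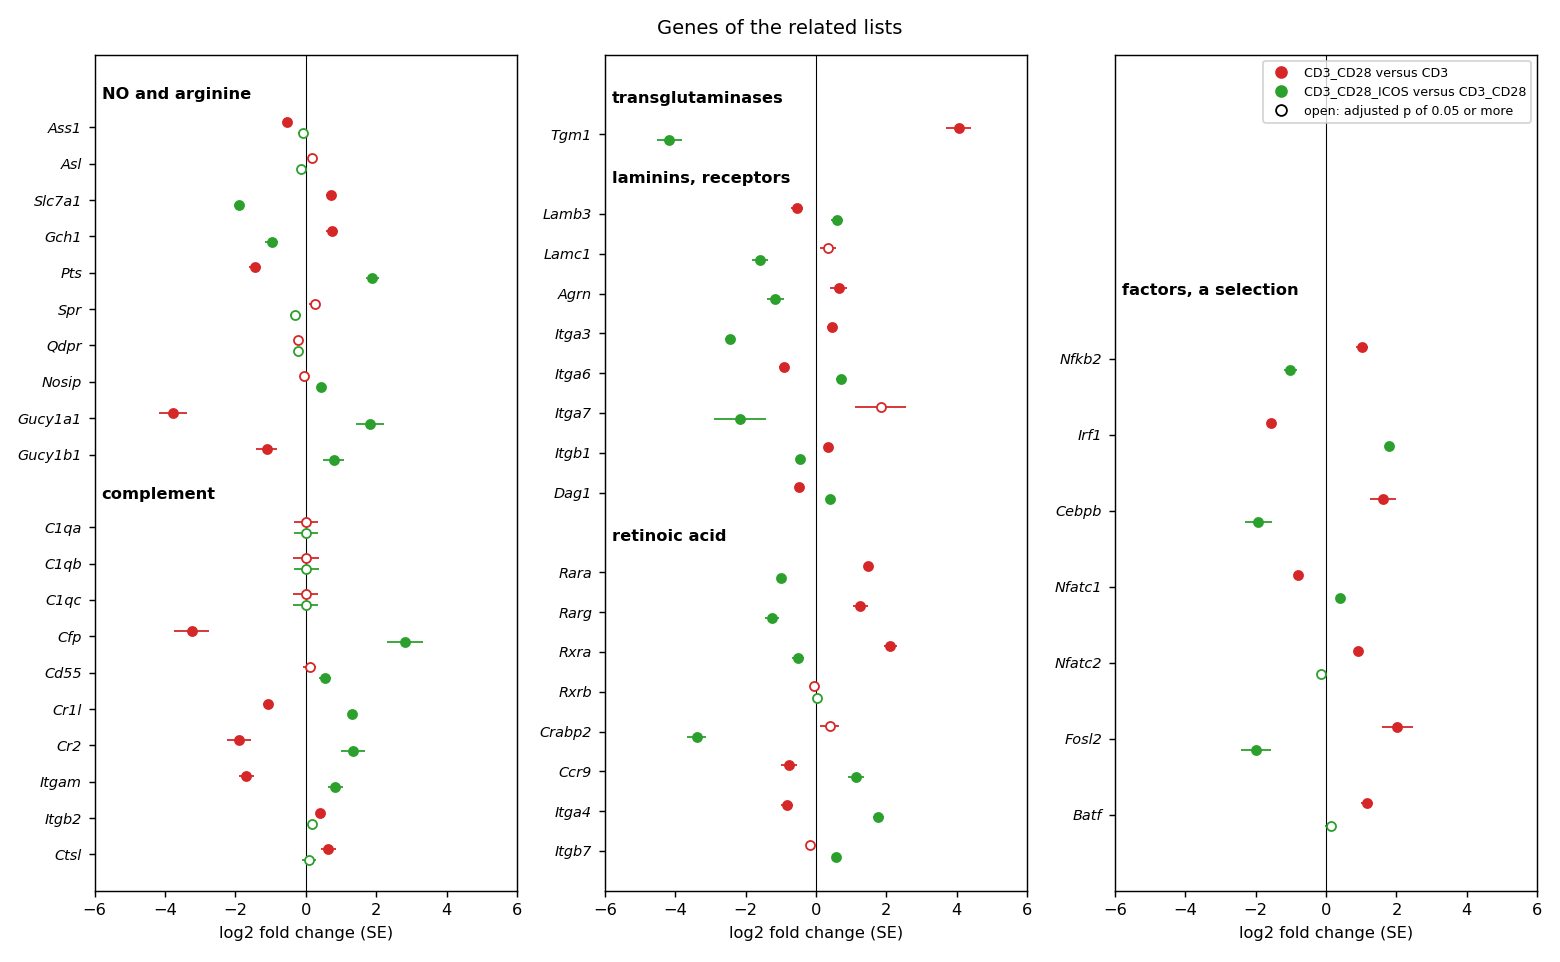
Log2 fold changes with SE of the tested genes of 5 lists, and of a selection of the transcription factor genes, in CD3_CD28 against CD3 and in the ICOS group against CD3_CD28; open points have an adjusted p of 0.05 or more. Tgm1 lies at 4.05 and -4.17, while Irf1 goes the other way from Cebpb and Fosl2. Tgm1, Agrn, Crabp2 and Cebpb passed the filter on low values only through CD3_CD28. For these genes the points are a description, and a filled point is not read as a test result.

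The genes most like each member were taken by Pearson's r of log2(CPM + 1) over the 12 libraries, which is a description, since all points share 4 groups. For Nos2 they were Snx18 (r = 0.986), Cisd3 (0.985), Rtkn (0.982), Trib3 (0.981) and Spred2 (0.980). For C3 they were Padi2 (0.965), Pak1 (0.964), Osm (0.961), Chst12 (0.959) and Fes (0.958). For Tgm2 they were Bmpr1a (0.991), Trib3 (0.990), Smox (0.987), Lipe (0.987) and Cish (0.985). For Lama5 they were Clpx (0.993), Gprin3 (0.986), Pdgfb (0.986), Sh3d21 (0.986) and Mt2 (0.985). Trib3, a stress-induced pseudokinase, was on the lists of both Nos2 and Tgm2. The 5 genes nearest C3 all had a higher mean in unstimulated cells than in CD3, as C3 did. They were picked by their r with C3, which favours a shared order.

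Between members, r over the 12 libraries ran from 0.744 (C3 and Lama5) to 0.967 (Nos2 and Tgm2). Over the 9 libraries outside CD3_CD28 it was 0.767 for Nos2 and Tgm2, 0.694 for Tgm2 and Lama5 and 0.366 for Nos2 and Lama5. There it was -0.058 for C3 with Nos2, -0.128 for C3 with Tgm2 and -0.659 for C3 with Lama5. Without the CD3_CD28 libraries all 6 values were lower, and those of C3 with the other members were below 0. The members were picked for being high together in CD3_CD28, so nothing is read from that fall.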

How the data were processed

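RNA was extracted with a column kit and sequenced paired-end, per the labels' protocols. Partek version 10, DESeq2 and build mm10 stand in the submitters' processing notes. Aligner, counter, annotation and strand setting: not given in the sources used here. The authors deposited CPM values for 17203 genes with 1e-04 added to each, found from the values; in a library 76.4% to 81.4% of low values were whole multiples of 1 step (tolerance 0.02 of it), too few to recover reads, and no count test was run. The authors' deposited table gives FDR p-values and log2 ratios of their own comparisons; its total signal per gene, as deposited, equals the sum of the CPM within 0.1% for 17203 genes.

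Tests covered the 9826 genes with 3 or more of 12 libraries at or above 10 CPM, with limma 3.58.1 in R 4.3.3 on log2(CPM + 1), 1 mean per group, mean-variance trend and robust estimation, two-sided, checked on simulated data. Alternatives were other pseudocounts, filters, scalings, fits and left-out libraries. The members, lists and naming rules were chosen with earlier results of these data known. Named genes were the members, list genes at 10 CPM or more or defining another cell type, the 5 genes most correlated with each member, and genes sharing the members' share and mean; predicted genes were left out. Adjusted p-values under 0.05 are called. Replicate numbers did not pair libraries. A result on 1 list gene is not reported here.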

Additional observations from a re-analysis of the deposited data

How the results depend on the processing

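Of the 6 counts of called genes, 1 moved by more than 1.5 times, CD3_CD28 against unstimulated cells, from 7391 to 11496 with no filter on low values. Leaving out 1 library gave 6305 to 7007 calls for CD3 against unstimulated, 6976 to 7498 for CD3_CD28 against unstimulated, 5309 to 5956 for the ICOS group against unstimulated, 5528 to 6474 for CD3_CD28 against CD3, 5468 to 6330 for the ICOS group against CD3_CD28 and 3658 to 4854 for the ICOS group against CD3. Scaling moved the splits of CD3 against unstimulated from 4280 higher and 2582 lower to 3618 and 3377 (median of ratios) or 3119 and 3766 (quantile), of the ICOS group against unstimulated from 3500 and 2332 to 3097 and 3171 or 2735 and 3487, and of the ICOS group against CD3 from 1859 and 2824 to 2591 and 2542 (quantile). Median of ratios scaling moved the median of all genes from 0.18 to 0.03 in CD3 against unstimulated, from -0.24 to 0.00 in CD3_CD28 against CD3 and from 0.13 to -0.07 in the ICOS group against CD3_CD28.

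Among members, Nos2 in CD3 against unstimulated was called with a pseudocount of 0.1 (2.45). Nos2 in the ICOS group against CD3 lost its call with a pseudocount of 5 (0.51) and in a fit of the 2 groups alone (1.21). C3 in the ICOS group against unstimulated gained a call after quantile normalization (-1.88) and with no trend and no robust estimation (-1.41). Tgm2 in CD3 against unstimulated lost its call after quantile normalization (1.18), as did Lama5 in the ICOS group against unstimulated (0.46, and 0.38 with a pseudocount of 5) and against CD3 (-0.74). For each of these the cause was not tested.

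Leaving out 1 library, Nos2 ranged from 0.44 to 0.66 in CD3 against unstimulated, called without ICOS replicate 2, from 1.13 to 2.14 in the ICOS group against unstimulated and from 0.57 to 1.59 against CD3. C3 ranged from -2.10 to -1.29, from -2.13 to -0.89 and from -0.34 to 0.91, Tgm2 from 1.15 to 1.78, from 1.18 to 2.24 and from -0.30 to 0.76, and Lama5 from 1.92 to 2.24, from 1.08 to 1.33 and from -1.06 to -0.73. C3 in the ICOS group against unstimulated was called without ICOS replicate 2 (adjusted p = 0.00180) or unstimulated replicate 3 (0.0432). The ICOS group against CD3 reversed to -0.34 for C3 and to -0.30 for Tgm2 without ICOS replicate 2.

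Same-numbered libraries correlated at -0.1 to 0.408 in their deviations over 18 pairs of libraries, 6 of them over 0.1, and 8 correlated best with their own number, so the numbers were not taken as pairs. With a replicate block the counts were 6795, 7322, 5786, 6262, 6121 and 4589, within 1.5 times of those without, and no call of a member changed. Depth limits Nos2 and Lama5 in unstimulated cells, where Nos2 was listed at 0 and 1 read is worth 0.0364 to 0.0444 CPM.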

Other observations

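The pattern of the 4 genes was shared by others. In all, 10 genes had a CD3_CD28 share and mean at or above the lowest of the members (83.3% and 80.3 CPM). The 6 others were the cell cycle inhibitor Cdkn1a (264 ± 13.7 CPM in CD3_CD28), the cytokines Lta (188 ± 24.1), Lif (150 ± 32.7) and Tgfb3 (85.4 ± 4.64), and the metal-binding metallothioneins Mt2 (118 ± 26.2) and Mt1 (116 ± 16.7). With a mean of at least 10 CPM there were 37 genes. Il24 and Notch3, named after their values were seen, had shares of 99.9% and 96.7%, above that of Nos2, and Il24 varied widely between its libraries (56.4 ± 43.2 CPM).

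ICOS replicate 2 was the highest ICOS library for all 4 members, at 6.09, 6.08, 3.06 and 1.34 times the mean of the other ICOS libraries for Nos2, C3, Tgm2 and Lama5. It was also the highest for 21 of 32 other genes with the pattern and any ICOS reads (65.6%), against 27.9% of tested genes. Its B cell marker sum was 264 CPM against 727 and 631 in the other ICOS libraries, and its myeloid sum was 33.3 CPM against 111 and 76.9. The part of these cells in the values was not tested.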
